A study of Mus musculus with 6 samples.

Results

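The genes described here are 9 transcripts of red blood cells, measured by RNA-seq in dorsal root ganglia of mouse embryos, where they serve as a measure of blood left in the dissected tissue. They are the alpha-type globin genes Hba-x, Hba-a1 and Hba-a2, the beta-type globin genes Hbb-y, Hbb-bh1, Hbb-bs and Hbb-bt, and the erythroid genes Alas2 and Slc4a1. All 9 were found by gene symbol among the 17971 genes of the table, and all 9 had enough counts to be tested. The ganglia, clusters of sensory neurons and glia beside the spinal cord, came from male embryos at E13.5. The 3 cKO libraries have the genotype Wnt1-cre+/-;Ybx1fl/fl, in which Cre driven by Wnt1 acts in the neural crest lineage. The 3 Ctrl libraries have the genotype Ybx1fl/fl, so both groups carry the floxed Ybx1 alleles and only cKO carries Cre. Effects of Cre and of the loss of Ybx1 therefore cannot be told apart. Red blood cells do not arise from the neural crest. Libraries numbered 1, 2 and 3 in both groups are treated as replicate pairs. Depth was 16464264 to 17446385 estimated counts per library.

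The targeted gene went with the labels. Ybx1, which encodes an RNA-binding cold-shock domain protein, stood at 851 ± 66.3 CPM (counts scaled to library size) in Ctrl and at 122 ± 14.4 in cKO (SD, n = 3 libraries each). One library, cKO replicate 1, stood apart in the genes described here: all 9 members were highest in it. Of all 14338 genes tested, 23.5% were highest in that library. The members' fold changes and ratios, and the calls among other gene lists made without a replicate block, are therefore given with and without it.

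Haemoglobin is built from alpha-type and beta-type chains, each holding a haem group. In the mouse embryo, the first red blood cells form in the yolk sac, circulate with their nuclei and use embryonic globins, though not these alone. Cells made later in the fetal liver use the adult globins, and around midgestation both kinds share the circulation. An embryonic share of globin is therefore not the share of yolk sac cells. Hba-x encodes the embryonic alpha-type chain zeta, and Hba-a1 and Hba-a2 encode the adult alpha chain. Hbb-y and Hbb-bh1 encode embryonic beta-type chains, and Hbb-bs and Hbb-bt encode the adult beta chains. Alas2 encodes the erythroid form of the first enzyme of haem synthesis. Slc4a1 encodes band 3, the anion exchanger of the red cell membrane.

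The globin genes lie in 2 clusters of the mouse genome (RefSeq, GRCm38.p6). The alpha-type genes are on the plus strand of chromosome 11, Hba-x at 32276600 to 32278116, Hba-a1 at 32283672 to 32284486 and Hba-a2 at 32296492 to 32297310. The beta-type genes are on the minus strand of chromosome 7, from Hbb-bt (103812524 to 103813923) and Hbb-bs (103826523 to 103827928) to Hbb-bh1 (103841638 to 103843162) and Hbb-y (103851754 to 103853207). Each of the 7 has 3 exons in GENCODE M21. Alas2 lies on chromosome X, at 150547417 to 150570622, and Slc4a1 on chromosome 11, at 102348820 to 102365281.

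The stretches before the start sites are shown for 5 of the members: an embryonic and an adult gene of each cluster, and Alas2. A link between these sequences and the members' levels across libraries was not tested. Each sequence is the 250 bases that end just before the RefSeq start of transcription, read 5′ to 3′ on the strand of the gene. Capitals mark matches to 4 motifs. The GATA motif is AGATAA, in which T may stand at the first base and G at the last. The motif bound by Klf1 and related factors is spelled CACCC in the sequence. A further promoter motif that many genes carry is spelled CCAAT in the sequence. The TATA motif is TATAAA, in which G may stand at the last base. The TATA motif was searched on the gene's strand only and the others on both strands.
Hba-x (chr11:32276350-32276599, plus strand): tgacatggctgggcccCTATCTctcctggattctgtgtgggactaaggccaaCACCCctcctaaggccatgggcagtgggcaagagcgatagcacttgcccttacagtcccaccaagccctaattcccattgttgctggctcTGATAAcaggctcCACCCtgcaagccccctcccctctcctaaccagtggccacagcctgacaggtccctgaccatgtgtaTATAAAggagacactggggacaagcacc
Hba-a1 (chr11:32283422-32283671, plus strand): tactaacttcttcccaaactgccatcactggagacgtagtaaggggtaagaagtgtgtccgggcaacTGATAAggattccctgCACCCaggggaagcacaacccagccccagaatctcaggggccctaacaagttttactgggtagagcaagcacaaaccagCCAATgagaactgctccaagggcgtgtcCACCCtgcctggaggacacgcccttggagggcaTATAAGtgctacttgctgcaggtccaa
Hbb-y (chr7:103853208-103853457, minus strand): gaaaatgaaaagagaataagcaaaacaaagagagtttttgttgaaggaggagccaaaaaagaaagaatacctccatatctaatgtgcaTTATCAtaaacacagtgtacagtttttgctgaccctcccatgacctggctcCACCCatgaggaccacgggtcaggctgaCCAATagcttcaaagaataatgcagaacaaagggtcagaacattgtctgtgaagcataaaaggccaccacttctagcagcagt
Hbb-bs (chr7:103827929-103828178, minus strand): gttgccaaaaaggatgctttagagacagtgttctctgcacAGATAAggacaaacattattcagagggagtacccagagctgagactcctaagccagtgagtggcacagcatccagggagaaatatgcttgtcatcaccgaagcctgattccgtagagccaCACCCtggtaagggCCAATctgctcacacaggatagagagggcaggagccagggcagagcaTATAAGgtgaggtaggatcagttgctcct
Alas2 (chrX:150547167-150547416, plus strand): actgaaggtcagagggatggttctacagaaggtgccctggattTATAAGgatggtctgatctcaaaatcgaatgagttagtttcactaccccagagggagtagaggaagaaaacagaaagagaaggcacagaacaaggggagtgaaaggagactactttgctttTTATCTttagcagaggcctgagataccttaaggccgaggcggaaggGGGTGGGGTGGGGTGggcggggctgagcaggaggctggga
GATA factors and the CACCC-binding factor Klf1 are known regulators of erythroid genes. The GATA motif was present in 6 of the 7 members with such a window in RefSeq, against 26.6% of 32817 windows of the same length before all annotated starts. CACCC was present in 7 of 7 (52.0% of all windows), CCAAT in 5 of 7 (33.8%) and the TATA motif in 6 of 7 (11.2%). The TATA match began 27 to 30 bases before the start in the 5 globin genes that had one, and 207 bases before it in Alas2. Hbb-y had none, and Hbb-bt had no GATA match. In Alas2 the 3 CACCC matches lie side by side on the opposite strand. The windows of Hba-a1 and Hba-a2 share an identical run of 247 bases, shifted by the placing of their starts, so that of Hba-a2 is not shown. Hbb-bs and Hbb-bt were 69.3% identical over the aligned window. A match of letters is a description of the sequence and not a measure of binding.

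The adult globin genes are near copies, which limits how far their counts can be told apart. The coding sequences of Hba-a1 and Hba-a2 in GENCODE M21 were identical at 425 of 426 bases, and those of Hbb-bs and Hbb-bt at 440 of 441. Of all stretches of 50 bases in the Hba-a1 transcript, 67.5% also occurred in Hba-a2, and 65.8% of those in Hbb-bs also occurred in Hbb-bt. No stretch of 50 bases was shared between any other pair of the 7 globin genes. The split of counts within Hba-a1 and Hba-a2, and within Hbb-bs and Hbb-bt, is thus uncertain, and their sums are given as well. The deposited counts of these 4 genes were fractional, while those of Hba-x, Hbb-y, Hbb-bh1 and Slc4a1 were whole in every library. Those of Alas2 were also fractional in some libraries, though close to whole (393.99 in Ctrl replicate 1 and 853.98 in cKO replicate 1).

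Globin transcripts were among the most abundant in the ganglia. On the TPM scale (a level scaled for gene length and library size), Hba-a1 ranked second of all 17971 genes by its mean over the 6 libraries and Hba-a2 ranked 7. Hbb-y ranked 10, Hbb-bs 21, Hbb-bt 97 and Hba-x 104. The minor embryonic gene Hbb-bh1 ranked 3369, Alas2 5891 and Slc4a1 10599. The order by level was Hba-a1, Hba-a2, Hbb-y, Hbb-bs, Hbb-bt, Hba-x, Hbb-bh1, Alas2 and Slc4a1, and each neighbour in it kept its place in 6 of 6 libraries except Hbb-bt and Hba-x. Hbb-bt was above Hba-x in 3 of the 6, so that pair is not ordered beyond its spread. Together the 9 members held 2.55%, 1.91% and 2.75% of all TPM in Ctrl replicates 1, 2 and 3, and 5.91%, 1.62% and 2.66% in cKO replicates 1, 2 and 3. In bulk tissue, more blood cells and more of these transcripts per blood cell cannot be told apart.

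**Figure D1:**
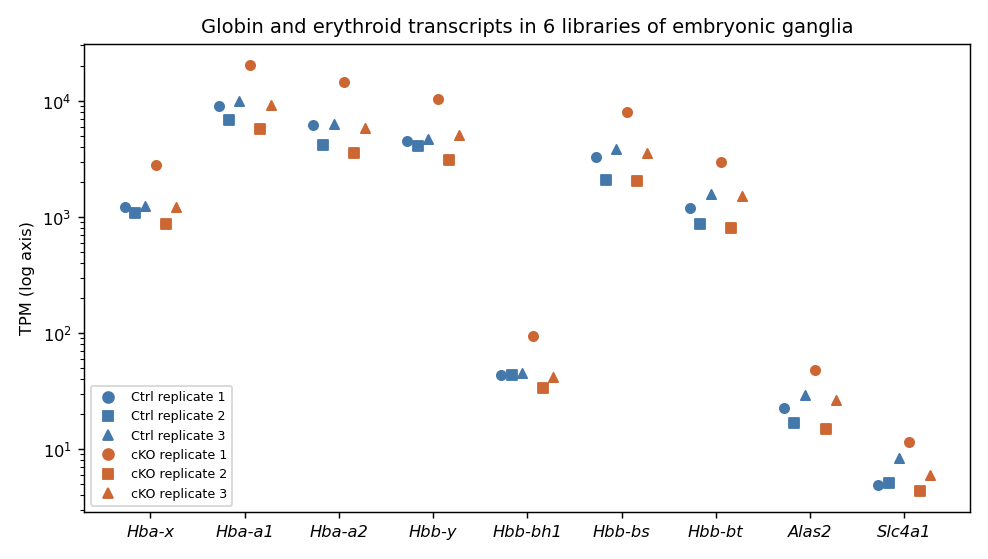
TPM on a log axis for each member, with 1 point per library (blue Ctrl, orange cKO, marker shape the replicate number). Every member is highest in cKO replicate 1, and the other 5 libraries lie within 2.05-fold of one another on the CPM scale.

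The embryonic alpha-type gene Hba-x had 1209, 1085 and 1244 TPM in Ctrl replicates 1, 2 and 3, and 2798, 865 and 1218 in cKO replicates 1, 2 and 3. The cKO group thus held both the highest and the lowest library, and the Ctrl values lay between them. The adult gene Hba-a1 had 9062, 6784 and 9876 TPM in Ctrl and 20256, 5772 and 9259 in cKO, in the same order of replicates. Hba-a2 had 6140, 4149 and 6270 TPM in Ctrl and 14621, 3579 and 5834 in cKO. Both adult alpha genes showed the arrangement of Hba-x: cKO replicate 1 far above the rest, cKO replicate 2 lowest, and Ctrl replicate 2 next to lowest. Summed over both genes, adult alpha globin stood at 2171 ± 485 CPM in Ctrl and 3084 ± 2324 CPM in cKO (SD, n = 3).

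Among the beta-type genes, embryonic Hbb-y had 4542, 4102 and 4659 TPM in Ctrl and 10319, 3100 and 5108 in cKO. Here cKO replicate 3 exceeded the 3 Ctrl libraries, which it did for no other member. Hbb-bh1 had 43.9, 43.7 and 45.2 TPM in Ctrl and 94.5, 33.3 and 42.2 in cKO. Its Ctrl libraries were close to one another, at 8.03 ± 0.378 CPM (SD, n = 3). The counts behind Hbb-bh1 were small, from 98 (exact Poisson 95% interval 79.6 to 119) in cKO replicate 2 to 318 (284 to 355) in cKO replicate 1. These intervals cover counting error only. The interval of cKO replicate 3 (102 to 147) overlapped those of all 3 Ctrl libraries. That of cKO replicate 2 overlapped those of Ctrl replicates 2 and 3 but not that of Ctrl replicate 1 (121 to 170), and that of cKO replicate 1 overlapped none.

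The adult beta gene Hbb-bs had 3278, 2090 and 3815 TPM in Ctrl and 7975, 2025 and 3535 in cKO. Hbb-bt had 1187, 862 and 1584 TPM in Ctrl and 2952, 804 and 1528 in cKO. For these genes both libraries numbered 2 were low, and those of pair 3 were close to each other. Their sum was 842 ± 254 CPM in Ctrl and 1252 ± 927 CPM in cKO (SD, n = 3). The theta globin genes Hbq1a and Hbq1b, which were no members, had at most 8 counts in any library and were not tested.

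The haem synthesis gene Alas2 had 22.8, 16.7 and 29.4 TPM in Ctrl and 48.1, 15.0 and 26.3 in cKO. The membrane gene Slc4a1 had 4.93, 5.09 and 8.39 TPM in Ctrl and 11.4, 4.39 and 6.03 in cKO. Both followed the globins in cKO replicate 1, but Ctrl replicate 3 was nearer to it than for the globins. The ratio of cKO replicate 1 to the next highest library was 1.49 for Slc4a1 and 1.78 for Alas2, against 2.02 to 2.42 for the 7 globins.

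Within replicate pairs, the difference between cKO and Ctrl turned with the pair. In pair 1 all 9 members were higher in cKO, 2.15-fold (Alas2) to 2.53-fold (Hbb-bt) on the CPM scale. In pair 2 all 9 were lower in cKO, at 0.745 (Hbb-y) to 0.955 (Hbb-bs) of the Ctrl level. In pair 3, 8 were lower and 1, Hbb-y, was higher, with ratios from 0.700 (Slc4a1) to 1.04. The median log2 ratio over the members was 1.23, -0.24 and -0.17 in pairs 1, 2 and 3, and the median over all 14338 tested genes was 0.01, 0.00 and 0.00. Summed over the 7 globins, the log2 ratio was 1.24, -0.26 and -0.12 in the 3 pairs. A difference between pairs was not tested, since each holds 1 library per group.

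**Figure D2:**
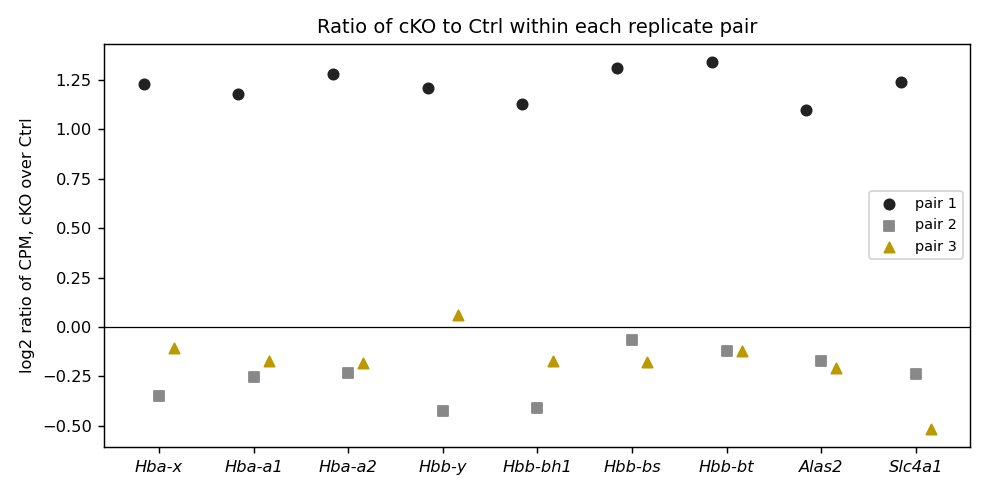
log2 ratio of CPM in cKO over Ctrl for each member within pairs 1, 2 and 3 (marker shape and colour). Pair 1 lies at 1.10 to 1.34 for every member, and pairs 2 and 3 lie between -0.52 and 0.06.

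Between the groups, none of the 9 members passed the test. Hba-a1, the most abundant, had a log2 fold change of 0.47 (SE 0.60, 95% interval -1.13 to 2.07, edgeR adjusted p 0.862). The estimates for the other alpha-type genes were 0.48 for Hba-x (interval -1.02 to 1.99) and 0.56 for Hba-a2 (-1.25 to 2.37). Those of Hbb-y, Hbb-bh1, Hbb-bs and Hbb-bt were 0.50, 0.38, 0.58 and 0.56, with intervals that reached from -1.21 to 2.37. Alas2 had 0.40 (-1.10 to 1.90) and Slc4a1 0.28 (-0.96 to 1.52). By edgeR 0 of 9 passed at an adjusted p under 0.05, where 0.481% of all tested genes did (0.112% higher and 0.37% lower in cKO), and 0 of 9 had an unadjusted p under 0.05, against 10.7% of all tested genes. DESeq2 and limma-voom also called 0 of 9. The log2 fold changes were smaller in limma-voom, 0.17 to 0.36, against 0.28 to 0.58 in edgeR and 0.27 to 0.58 in DESeq2. For all 9 the cKO and Ctrl libraries overlapped, while the groups did not overlap for 16.6% of tested genes (cKO higher for 7.83% and lower for 8.77%). With the replicate pair as a block, edgeR again called 0 of 9 (log2 fold changes 0.22 to 0.37, adjusted p 0.771 to 0.883), where 5.33% of all tested genes passed (1.76% higher and 3.56% lower). Without the block, the interval of every member takes in a rise of more than 2-fold, so the data do not show that the groups were alike.

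The direction of these estimates rested on cKO replicate 1. Without it, all 9 log2 fold changes were negative, from -0.33 (Hba-a2) to -0.14 (Hbb-bt), and edgeR called 0 of 9 (adjusted p 0.420 to 0.949), where 0.721% of the genes tested were called. Hbb-bh1 alone had an unadjusted p under 0.05 there (0.0499). Without both libraries of pair 1 and without a block, the values were -0.40 (Slc4a1) to -0.12 (Hbb-bt), again with 0 of 9 called, where 5.09% of all genes tested were. With the block and without pair 1, edgeR called 4 of 9 lower in cKO, where 5.1% of tested genes were lower, 3.62% higher and 8.72% called in either direction. These were Hba-x (log2 fold change -0.22, adjusted p 0.00165), Hba-a1 (-0.21, 0.000403), Hba-a2 (-0.21, 0.000805) and Slc4a1 (-0.39, 0.0154). The other 5 were lower without passing (adjusted p 0.0997 to 0.328). That model holds 2 pairs, was added after seeing the data and leaves out the pair in which every member was higher in cKO.

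**Figure D3:**
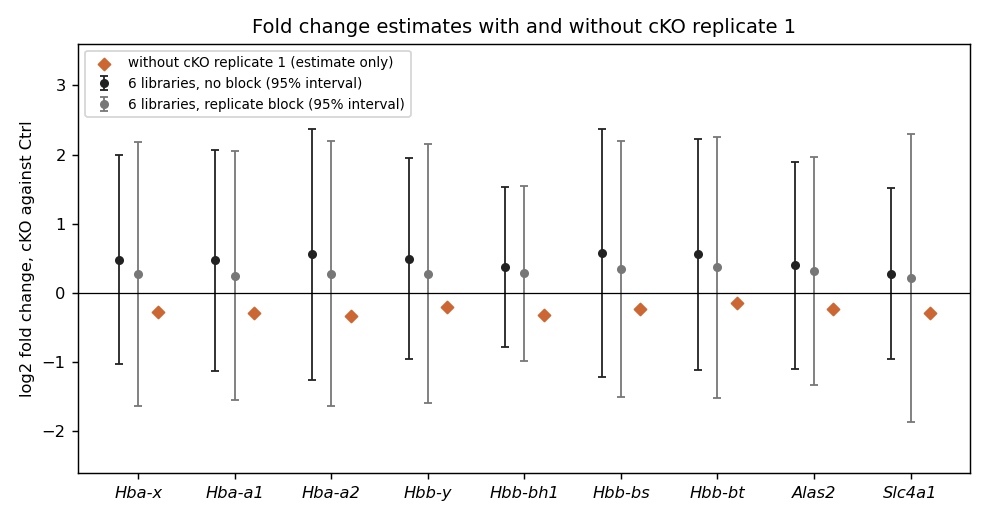
log2 fold change of cKO against Ctrl with 95% intervals for the model of 6 libraries without (black) and with (grey) the replicate block, and the estimate without cKO replicate 1 (orange diamonds, no interval drawn). All intervals cross 0, and all 9 diamonds lie below 0.

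The spread within groups, pooled over Ctrl and cKO, was large for these genes. It was wider in cKO, which holds cKO replicate 1, for every member. In CPM, the SD of cKO against that of Ctrl was 1309 against 276 for Hba-a1 and 10.3 against 4.43 for Slc4a1. For Hbb-bh1 it was 6.9 against 0.378. The Ctrl means of these genes were 1312, 14.8 and 8.03 CPM, so the spread within Ctrl was narrow for Hbb-bh1. The within-group SD of log2 CPM was 0.63 (Slc4a1 and Hbb-bh1) to 0.84 (Hba-a2 and Hbb-bs), against a median of 0.12 over all tested genes. Each member exceeded 98.7% to 99.6% of tested genes in this pooled spread. That standing was not computed without cKO replicate 1 or within Ctrl alone. The highest library exceeded the lowest by 2.92-fold (Slc4a1) to 4.62-fold (Hba-a2). Without cKO replicate 1 that range was 1.46-fold (Hbb-bh1) to 2.05-fold (Hbb-bt).

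Over all 6 libraries, the ratios among the members moved less than their level, whose range rested largely on cKO replicate 1. Embryonic genes made up 50.7%, 58.4% and 46.6% of beta-type TPM in Ctrl replicates 1, 2 and 3, and 48.8%, 52.6% and 50.4% in cKO replicates 1, 2 and 3. The means were 51.9% ± 5.99 in Ctrl and 50.6% ± 1.91 in cKO (SD, n = 3), and the groups overlapped. Without cKO replicate 1 the cKO mean was 51.5%. Hba-x made up 7.85% ± 1.02 of alpha-type TPM in Ctrl and 7.79% ± 0.589 in cKO (SD, n = 3), or 7.97% in cKO without replicate 1. For both shares, Ctrl replicate 2 was highest, cKO replicate 2 next and Ctrl replicate 3 lowest. The embryonic shares thus ranged 1.25-fold and 1.26-fold over the 6 libraries, while the summed TPM of the members ranged 3.65-fold. Without cKO replicate 1, that sum ran only from 16198 (cKO replicate 2) to 27533 (Ctrl replicate 3). A share is bounded and a level is not, so these fold ranges are not on the same scale. In cKO replicate 1, which held the most globin, both embryonic shares lay within the range of the Ctrl libraries.

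Alpha-type TPM exceeded beta-type TPM 1.6-fold to 1.81-fold in the 6 libraries, with means of 1.74 ± 0.0624 in Ctrl and 1.69 ± 0.0862 in cKO (SD, n = 3). Without cKO replicate 1, the mean of the other 2 cKO libraries was 1.66. Of embryonic beta-type TPM, Hbb-bh1 held 0.818% to 1.06%, and Hbb-y the rest. Hba-a1 exceeded Hba-a2 1.39-fold to 1.63-fold, and Hbb-bs exceeded Hbb-bt 2.31-fold to 2.76-fold, as the authors' counting split them. Per 1000 TPM of globin, Alas2 had 0.816 to 1.07 TPM. Slc4a1 had 0.194 in both libraries of pair 1 and 0.227 to 0.305 in the other 4, with the highest value in Ctrl replicate 3.

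**Figure D4:**
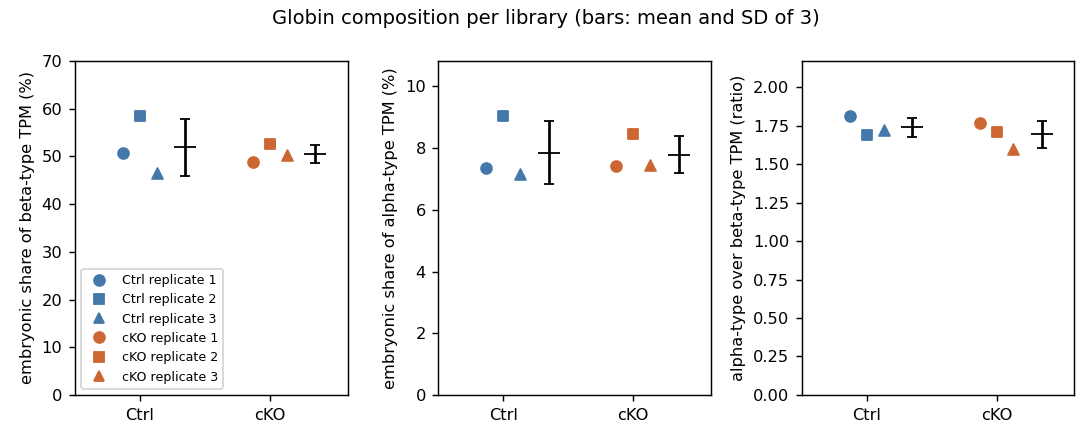
Embryonic share of beta-type TPM, embryonic share of alpha-type TPM and the ratio of alpha-type to beta-type TPM, with 1 point per library and the mean and SD of each group. The groups overlap in all 3 panels, and Ctrl replicate 2 has the highest embryonic shares, 58.4% and 9.03%.

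Other genes of the erythroid lineage were read from 4 lists that leave out the members. Of all genes tested, edgeR called 0.481% without the block, 5.33% with it, and 0.721% without cKO replicate 1 and with no block. In haem synthesis, 0 of 11 tested genes passed in edgeR (median log2 fold change 0.05, against 0.00 over all tested genes). Alas1, the form of the first enzyme used outside red cells, had 49.9 to 55.9 CPM, a narrow range beside that of Alas2, and was highest in cKO replicate 3. With the block Urod, a later enzyme of the pathway, was higher in cKO (log2 fold change 0.22, edgeR adjusted p 0.0466). Of 14 tested genes of the red cell membrane and its skeleton, 1 rose and 0 fell (median 0.04). That gene was Ermap, an erythroblast membrane protein gene (log2 fold change 1.56, SE 0.26, edgeR adjusted p 0.0228), which lies on the same chromosome as Ybx1. It had 1.22, 2.44 and 2.64 CPM in Ctrl and 7.84, 5.37 and 5.37 in cKO. Ermap was thus higher in cKO in all 3 pairs, and its groups did not overlap. Whether its rise goes with its place on the chromosome of Ybx1 or with red blood cells was not tested. With the block Epb41, a skeleton protein gene also used outside red cells, was lower as well (-0.23, edgeR adjusted p 0.00892). None of 10 erythroid transcription factor genes passed (median 0.09), nor any of 20 other erythroid genes (median 0.09), with or without the block. Without cKO replicate 1 and with no block, Ermap was again the 1 gene called in these 4 lists (log2 fold change 1.36, edgeR adjusted p 0.0196), and the medians were 0.05, -0.01, 0.02 and -0.01 in the order given. Over these 4 lists, 28 of 55 tested genes (50.9%) were highest in cKO replicate 1, against 23.5% of all tested genes.

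The summed levels of these lists varied little beside the members. In pair 1, where the 7 globins were higher in cKO by 1.24 on the log2 scale, the sums differed by 0.13 for haem synthesis, -0.24 for the membrane genes, 0.04 for the transcription factors and 0.01 for the other erythroid genes. The most abundant listed genes are also used by neurons or by many cell types. Among them were the transcription factor genes Ldb1 (238 to 267 CPM) and Bcl11a (74.6 to 92.3 CPM), the peroxiredoxin gene Prdx2 (604 to 745 CPM) and the mitophagy receptor gene Bnip3l (mean 158 CPM). Genes more specific to the lineage had few counts. Gata1, the master regulator of the lineage, had 4, 4 and 14 counts in the Ctrl libraries, 18, 4 and 9 in the cKO libraries, and was not tested. Ahsp, the chaperone of free alpha globin, was counted 78, 38 and 109 times in Ctrl, against 163, 46 and 70 times in cKO. Gata1 was chosen after its values were seen. In both genes the 2 highest libraries were cKO replicate 1 and Ctrl replicate 3.

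Markers of other cells were set beside the members. Of all genes tested, edgeR called 0.481% without the block and 5.33% with it (1.76% higher and 3.56% lower in cKO). Without cKO replicate 1 and with no block, it called 0.721%. Macrophage genes, of which 19 of 20 were tested, were summed to 170, 166 and 187 CPM in Ctrl and 287, 201 and 197 in cKO, and 17 of the 19 were highest in cKO replicate 1. In pair 1 their sum was higher in cKO by 0.76 on the log2 scale, against 1.24 for the globins, and in pairs 2 and 3 it was higher by 0.27 and 0.08, where the globins were lower. All 19 had a positive log2 fold change (median 0.43), and 1 rose: Mpeg1, a pore-forming protein gene of macrophages (0.82, edgeR adjusted p 0.0446). With the block, 3 rose. Without cKO replicate 1, 17 of 19 were positive (median 0.25) and Mpeg1 alone was called (0.64, edgeR adjusted p 0.0356). Endothelial genes summed to 568 to 652 CPM, and none of 16 passed (median -0.02). Platelet and megakaryocyte genes summed to 39.1, 41.9 and 42.7 CPM in Ctrl and 40.5, 32 and 37.3 in cKO, with none of 8 tested called. With the block 1 of them, Gp1bb, a glycoprotein gene of platelets, was lower (-0.37, edgeR adjusted p 0.0101). Gp1bb alone had 22.4, 23.2 and 22.7 CPM in Ctrl and 16.7, 17.7 and 18.6 in cKO, so the sum leaned on it. Whether the counts of Gp1bb came from platelets was not tested. The next most abundant gene of the list, Pf4, had 7.09, 7.26 and 7.23 CPM in Ctrl and 11.2, 6.72 and 7.23 in cKO. Of the 8 tested, 2 were highest in cKO replicate 1. Pericyte genes summed to 211 to 230 CPM and sensory neuron genes to 15400 to 16100 CPM, with none of 6 and none of 12 called without the block. With the block none of the pericyte genes passed, while 3 neuron genes did: the transcription factor gene Isl1 (-0.21, edgeR adjusted p 0.00833) and the stathmin gene Stmn2 (-0.20, edgeR adjusted p 0.00858) were lower in cKO, and the growth cone protein gene Gap43 (0.21, edgeR adjusted p 0.0145) was higher. Glial genes summed to 1340 to 1430 CPM in Ctrl and 1460 to 1590 in cKO, and 0 of 8 passed without the block and 5 with it, all higher. Granulocyte genes summed to 4.35 to 10.1 CPM, and none of 4 tested passed. Skeletal muscle genes summed to 8.04 to 14.3 CPM, were highest in cKO replicate 1 and had none of 6 tested called. Liver genes summed to 0.701 to 2.76 CPM, highest in Ctrl replicate 3, and none could be tested. The globins of other cells, Cygb, Adgb and Ngb, did not pass (median -0.13). Without cKO replicate 1 and with no block, Mpeg1 was the only gene called among these lists of other cells. No listed gene in the table was at 0 in all 6 libraries. The part of these other cells in the members' pattern was not tested.

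**Figure D5:**
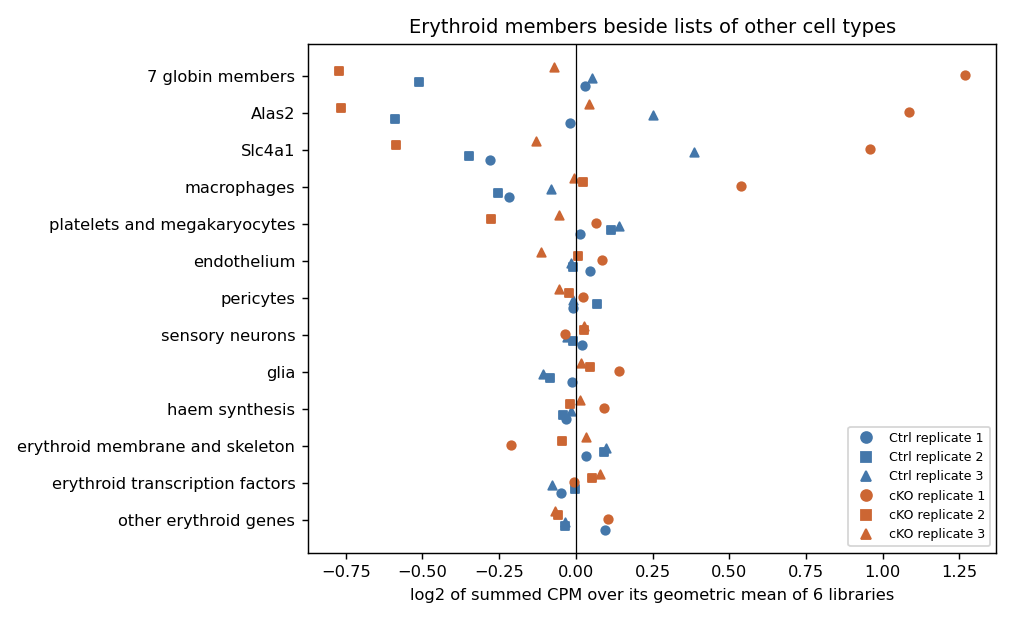
Summed CPM of the 7 globins, of Alas2, of Slc4a1 and of the lists named on the vertical axis, per library, as log2 of its ratio to the geometric mean of the 6 libraries. Circles, squares and triangles stand for replicates 1, 2 and 3, in blue for Ctrl and orange for cKO. Among the points drawn, the globins of cKO replicate 1 lie farthest to the right, macrophage genes of that library lie to the right by less, and endothelial, pericyte and neuron genes stay close to 0.

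The genes whose pattern over the 6 libraries was most like that of the members were ranked by the root-mean-square difference of centred log2 CPM from the members' mean profile. Among 13740 other genes with a mean of at least 1 CPM the median difference was 0.61, and the members themselves lay at 0.04 (Hba-a1) to 0.20 (Slc4a1). The nearness of the members is in part built in, since the profile is their own mean. A gene that is flat over the 6 libraries would lie at 0.60, close to that median. The 8 nearest were Gm31606 (0.16), the metallothionein gene Mt2 (0.19), Pdzk1ip1 (0.23), the steroid dehydrogenase gene Hsd3b6 (0.23), Gm41607 (0.26), the ubiquitin-like conjugating enzyme gene Ube2l6 (0.27), the myeloid adaptor gene Tyrobp (0.29) and Ahsp (0.29). Gm31606 had 3.95, 2.74 and 3.49 CPM in Ctrl and 7.79, 2.39 and 2.86 in cKO. Like the globins it was highest in cKO replicate 1 and lowest in cKO replicate 2. Ube2l6 and Ahsp are also on the list of other erythroid genes, and Tyrobp is on the macrophage list. Counts of Hsd3b6 are uncertain, as that family has near-identical copies.

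The members took few enough counts to leave the scaling of other genes nearly as it was. They held 0.447%, 0.310% and 0.458% of all counts in Ctrl replicates 1, 2 and 3 and 1.08%, 0.263% and 0.427% in cKO replicates 1, 2 and 3. With scaling computed without them, edgeR called 67 genes over the whole table, against 69 with them.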

How the data were processed

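Dorsal root ganglia of 6 samples were profiled by RNA-seq. The labels' protocols name Trizol for RNA and an mRNA library kit, and do not say if strand was kept. The submitters' processing notes list HISAT2 (2.2.1), RSEM (1.3.1), Bowtie2 (2.4.5) and the mouse build GRCm38 (mm10) without saying which did what. Per gene, the deposited table holds estimated counts, not normalized, and TPM values, which the authors scaled for length. Between 88.4% and 88.6% of counts per library were whole numbers. All columns used matched a sample by its code, and 0 columns lacked a sample.

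Counts were rounded, filtered with filterByExpr (14338 of 17971 genes kept), scaled by TMM and tested two-sided in edgeR 4.0.16 (R 4.3.3) by robust quasi-likelihood F. P-values were adjusted after Benjamini and Hochberg over all genes tested, with a threshold of 0.05. SEs come from the fold change and its F statistic. The model without the block was tested on simulated counts. These had the same dispersion for every gene, no pairs and no outlying library, so genes as spread as the members were not covered. The labels call the samples biological, with littermate controls. Within pairs 1, 2 and 3, the libraries' deviations from the mean of their group had correlations of 0.305, 0.208 and 0.201 over genes, and sample codes share a start within a pair, so the numbers were taken to pair the samples. Alternatives were DESeq2 1.42.0, limma-voom (limma 3.58.1), other scalings and filters, the replicate block and leaving out libraries; models without pair 1, and the lists without cKO replicate 1, were added after seeing the data. Shares and pair ratios have no test. Promoter sequences are from RefSeq GRCm38.p6 and transcripts from GENCODE M21, aligned with Biopython 1.88. Members, lists and tests were chosen with earlier results of these data known. Named genes are the members, Ybx1, up to 4 called genes or the 2 most abundant of each list described, and the 8 genes most like the members; exceptions are marked. Figures were drawn with matplotlib 3.10.9.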

Additional observations from a re-analysis of the deposited data

How the results depend on the processing

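Each member's fold change was recomputed under 17 alternatives, 153 values in all. Of these, 126 kept their direction and did not pass the threshold. The other 27 turned negative, and all 27 came from the 3 settings without cKO replicate 1. Leaving out single libraries gave log2 fold changes of -0.27 to 0.81 for Hba-x, -0.29 to 0.82 for Hba-a1, -0.33 to 0.93 for Hba-a2, -0.20 to 0.83 for Hbb-y, -0.32 to 0.67 for Hbb-bh1, -0.23 to 0.95 for Hbb-bs, -0.14 to 0.92 for Hbb-bt, -0.23 to 0.74 for Alas2 and -0.30 to 0.56 for Slc4a1. The negative end came without cKO replicate 1 each time. Without pair 1 and with no block, the values were -0.21 for Hba-x, -0.20 for Hba-a1, -0.20 for Hba-a2, -0.14 for Hbb-y, -0.28 for Hbb-bh1, -0.14 for Hbb-bs, -0.12 for Hbb-bt, -0.19 for Alas2 and -0.40 for Slc4a1. Without pair 1 and with the replicate block, they were -0.22, -0.21, -0.21, -0.18, -0.29, -0.12, -0.12, -0.19 and -0.39 in the same order, and 4 were called lower.

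The count of called genes over the whole table was 69, and moved to 44 with library totals, 184 with the DESeq2 test, 128 with no filter, 764 with the replicate block and 799 with the block and library totals. It was 18 to 104 on leaving out single libraries, 731 without pair 1 and 1252 without pair 1 with the block; the cause was not tested. The replicate block changed no call of a member over all 3 pairs. The summed globin log2 ratio of the group means was 0.52, and -0.26 to 0.87 on leaving out single libraries. Embryonic shares of alpha-type globin were 8.93% in Ctrl and 8.86% in cKO on estimated counts, which are not scaled for length. On leaving out single libraries the shares were 7.27% to 8.20% (alpha-type, Ctrl), 7.45% to 7.97% (alpha-type, cKO), 48.7% to 54.5% (beta-type, Ctrl) and 49.6% to 51.5% (beta-type, cKO).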

Other observations

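A few genes of fetal liver and blood marked single libraries, all chosen after their values were seen. Alb and Afp, the main plasma protein genes of fetal liver, had 16 and 14 counts in Ctrl replicate 3, 4 and 2 in cKO replicate 3, 2 and 0 in cKO replicate 1, and 0 in the other 3 libraries. Other listed liver genes did not follow: Apoa2 was highest in cKO replicate 1 (15 counts, against 9 in Ctrl replicate 3), Ttr in Ctrl replicate 1 (6, against 4), Apoa1 had 1 to 2 counts in every library, and Fgb had 0 in Ctrl replicate 3. Ctrl replicate 3 also had the lowest embryonic globin shares (46.6% of beta-type and 7.16% of alpha-type TPM) and the highest Slc4a1 level per 1000 TPM of globin (0.305). The granule protein genes of neutrophils Ngp and Ltf were highest in 2 cKO libraries. Ngp had 36 and 38 counts in cKO replicates 1 and 3 and 5 to 12 in the other 4, and Ltf had 26 and 25 counts against 5 to 8. The neutrophil enzyme genes Mpo and Elane did not: Mpo was counted 34, 11 and 20 times in Ctrl, against 9, 23 and 15 times in cKO, and Elane 6, 4 and 4 times in Ctrl, against 0, 1 and 0 times in cKO. The 7 globins, at 4202 CPM in cKO replicate 3, and the macrophage genes, at 197 CPM, were close to their levels in Ctrl replicate 3 (4575 and 187 CPM).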
